A study of Homo sapiens with 6 samples.

Results

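The comparison sets cells of the Hodgkin lymphoma line L1236 held for 1 h with methanol, the solvent of leukotriene D4, against untreated L1236 cells of the same time. Its members are 2 arrays of the 6 in the series, 1 a side, chosen by their labels. The methanol cells were spun down and taken up in RPMI 1640 without serum, with methanol at 0.1% and no leukotriene. How the untreated cells were handled, and whether their medium held serum, is not said, so methanol, serum removal and resuspension cannot be told apart. Both came from cultures grown with 10% heat-inactivated fetal calf serum, and total RNA was taken with TRIzol and labelled with biotin. A methanol array and an untreated array of 8 h, with the same labels otherwise, served as a second pair, and the array with 100 nM leukotriene D4 (LTD4) at 1 h was read beside them. L1236 is 1 established line, and each group is 1 array, so no replicate error exists and no difference here could be tested. Every value below describes single arrays, and since whole cultures were measured, fewer cells of a type and less RNA per cell cannot be told apart.

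Methanol is oxidised in cells to formaldehyde and formate, by alcohol dehydrogenases, catalase and the glutathione-dependent enzyme ADH5, and formate enters folate-bound one-carbon metabolism. Transfer of growing cells out of serum is known to lower growth factor signalling, which many early response genes and the histone genes of S phase depend on. Small RNAs such as small nucleolar RNAs, spliceosomal RNAs and the RNA parts of RNase P and RNase MRP are mostly not polyadenylated, and how much of them an extraction and a labelling retain varies.

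Intensities are the deposited gene-level values on a linear scale, and differences are methanol minus untreated in log2(intensity + 16), where 1 unit is 2-fold. A gene was counted when its mean over the 6 arrays reached 10.32 on that scale, an intensity of 1263, which is the 95th percentile of 45 antigenomic control rows that match no human sequence. Of 18605 genes with a row, 2772 passed, namely 2646 of 17163 protein-coding genes, 49 of 329 short RNA rows and 77 of 1113 others. Short RNA rows belong to a small RNA class or span under 400 bases without coding for protein. Of the 49, 31 were of a named small RNA class and 18 were other short rows, many of them pseudogenes.

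The 2 arrays differed by a shift that turned sign with intensity. Over all 33297 rows the median intensity was 228 with methanol and 188 in untreated cells, the first quartile 89.1 and 66.5, and the third quartile 650 and 667, so dim rows were brighter and bright rows dimmer on the methanol array. In 20 bins of intensity, the median difference of protein-coding genes was 0.32 in the dimmest bin, 0.04 in the 11th, -0.02 in the 12th and -0.25 in the brightest. The 2904 control rows in introns had medians of 106 with methanol and 83.0 in untreated cells, with a median difference of 0.24. The 1195 control rows in exons had medians of 2321 and 2598, a median difference of -0.22. The same intensity bins therefore had to be read with each gene, and a difference "from its bin" below is the gene's difference minus the protein-coding median of its bin. Over all rows the 2 arrays had a Spearman correlation of 0.973.

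**Figure D1:**
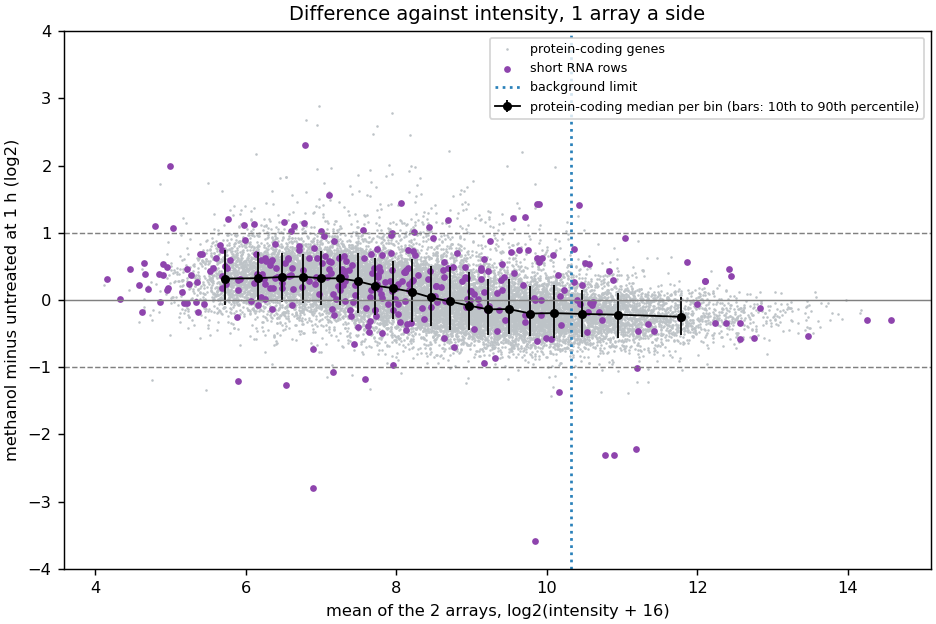
Difference between the methanol and the untreated array at 1 h (log2) against the mean of both arrays (log2(intensity + 16)), 1 point per gene, with protein-coding medians in 20 bins (bars span the 10th to 90th percentile) and dashed lines at 2-fold. The bin medians run from 0.32 at the dim end to -0.25 at the bright end and cross 0 at a log2 intensity between 8.46 and 8.71, left of the background limit of 10.32.

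Among the 2646 protein-coding genes that passed, 0 were at least 2-fold higher with methanol (0%) and 9 were at least 2-fold lower (0.34%). Their median difference was -0.23, with 489 above 0 and 2157 below. After the bin median was subtracted, NPM1 and CRYGN were at least 2-fold higher (0.0756%), and IER5, H4C6 and H2AC8 at least 2-fold lower (0.113%). At 1.5-fold the raw split was 9 higher (0.34%) and 200 lower (7.56%), while from the bin it was 44 higher (1.66%) and 34 lower (1.28%). Subtracting a bin's median balances the sides by construction, so the second split says nothing of the first.

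The count of higher genes depended on the limit. With no limit on intensity, 266 of 17163 protein-coding genes were at least 2-fold higher (1.55%) and 26 lower (0.151%), and of the 266 none reached the limit. Their median intensity was 303 with methanol and 108 in untreated cells, and 162 of them lay below the median of all main rows, an intensity of 203. With the limit lowered to that median, 104 of 10621 genes were at least 2-fold higher (0.979%) and 19 lower (0.179%). From the bin these were 106 (0.998%) and 15 (0.141%). CTAG2, a cancer-testis antigen gene, had 1739 with methanol against 365 in untreated cells, a difference of 2.20. CES1, a carboxylesterase, had 1403 against 340.2, and FAM110C had 2174 against 539. NEUROD2, a transcription factor gene of neurons, had 1654 against 488. These 4 genes were above 1263 on the methanol array and below it on the untreated array. At 8 h they were higher with methanol too, by 1.74, 1.56, 1.11 and 1.60 in the same order. The median of all protein-coding genes at 8 h without a limit was 0.35. The 4 were picked with earlier results of these data known, so their 8 h values give no fresh support.

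**Figure D2:**
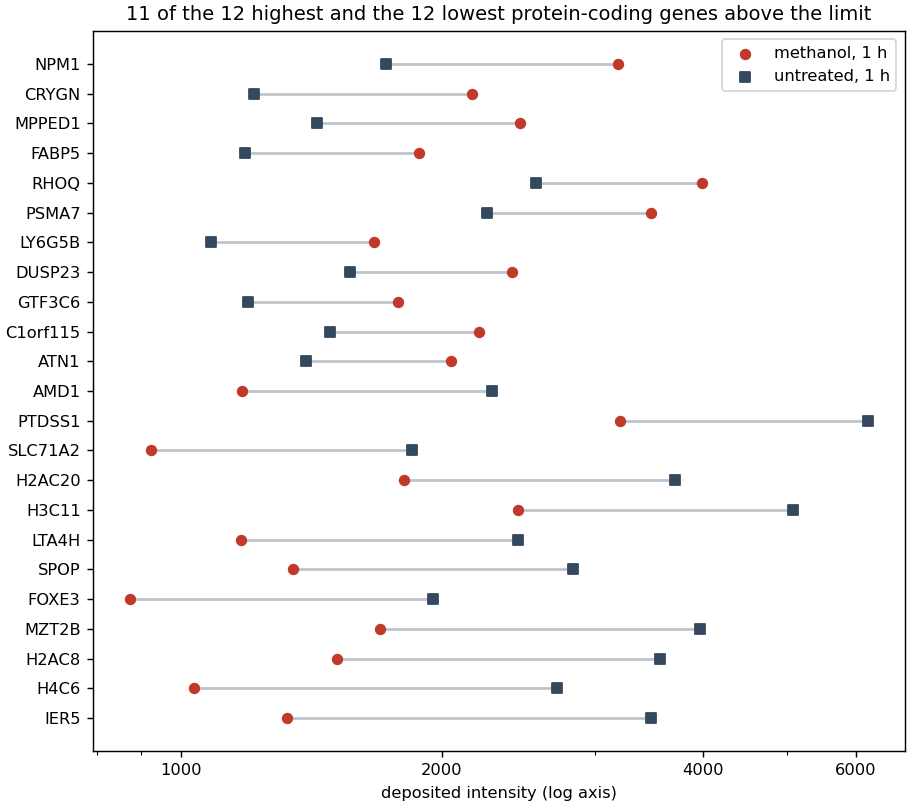
Intensity (log axis) with methanol (circles) and in untreated cells (squares) at 1 h for 11 of the 12 protein-coding genes with the highest and the 12 with the lowest difference above the background limit, 1 array each. The widest gap among the higher genes is that of NPM1, at 3196 against 1725, and among the lower genes that of IER5, at 1327 against 3480.

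IER5, an immediate early response gene, had the lowest difference of the protein-coding genes. It had an intensity of 1327 with methanol against 3480 in untreated cells at 1 h, a difference of -1.38, or -1.16 from its bin. The LTD4 array at 1 h, whose cells were in serum-free medium too, had 1467. At 8 h IER5 had 1112 with methanol against 1462 in untreated cells, a difference of -0.39. The untreated array at 1 h was thus the one high value of these 5. Its row lies on chromosome 1 at 179324261-179326597 in the deposited coordinates (genome not given in the sources used here).

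Replication-dependent histone genes, which supply the histones of new chromatin in S phase and whose messages end in a stem-loop in place of a poly(A) tail, were the protein-coding list with the lowest median. Of 54 with a row, 23 passed, and 4 of these 23 were at least 2-fold lower and 0 higher, where 0.34% and 0% of protein-coding genes were. Their median difference was -0.70, or -0.46 from the bin, against -0.23 and near 0 over all protein-coding genes, and 18 of 23 lay below their bin. From the bin, 8 of 23 were at least 1.5-fold lower and 0 higher, where 1.28% and 1.66% of protein-coding genes were. H4C6, a histone H4 gene, had 1035 with methanol against 2712 in untreated cells, a difference of -1.38. H2AC8, a histone H2A gene, had 1514 against 3566, a difference of -1.23. H3C11, a histone H3 gene, had 2449.6 against 5079.96, and H2AC20, of H2A, had 1809 against 3712, differences of -1.05 and -1.03. The LTD4 array at 1 h had 1303, 1609, 2482 and 1858 for these 4 genes in the same order, nearer to the methanol than to the untreated values. At 8 h H4C6 had 1696 with methanol against 2786 in untreated cells, and H2AC8 had 1808.5 against 2982, so both untreated arrays were above both methanol arrays for these 2 genes.

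Every histone family had a median below 0 above the limit. The median difference of the members above the limit was -0.67 for 4 genes of H1, -0.89 for 6 of H2A, -0.49 for 4 of H2B, -0.47 for 4 of H3 and -0.53 for 5 of H4. Without a limit on intensity, the 10 rows of H4 had a median of -0.15, or -0.01 from the bin, 5 below and 5 above, while the other families had medians from -0.51 to -0.38 from the bin. In all, 42 of the 54 rows lay below their bin and 7 were at least 2-fold lower (0.151% of all protein-coding genes), adding H3C7, H3C12 and H3C1 at -1.43, -1.29 and -1.17. Among the 23 members above the limit, 1 was higher: H2AC21 had 2039 with methanol against 1646 in untreated cells, a difference of 0.31. Below the limit, dim rows such as H2BC1, with 52.0 against 25.7, and H4C7, with 60.7 against 44.7, differed by 0.71 and 0.34. The length of the deposited row went with the size of the difference, in a split at 1000 bases chosen after the values were seen. The 16 rows above the limit that span 357 to 793 bases had a median of -0.83, and the 7 rows of 1044 to 14965 bases had -0.21. From the bin these medians were -0.60 and -0.01. Long histone rows such as H2BC12 (-0.26), H2AC6 (-0.12) and H4C8 (-0.13) thus stood where most genes of their intensity did.

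The stretches of 250 bases before the start of 3 of the lowest histone genes and of IER5 are printed because these genes led the lower side, in RefSeq sequence of GRCh38.p14, 5′ to 3′ on the gene's strand. Capitals mark 3 motifs on either strand: the TATA box core TATAA, the box CCAAT, and the octamer ATTTGCAT. Where the core follows a T, it reads the same on the other strand too, and both are marked. They lie at chr6:26240143-26240392 for H4C6, chr6:26216671-26216920 for H2AC8, chr1:149886668-149886917 for H2AC20 and chr1:181088450-181088699 for IER5, all on the plus strand.
H4C6: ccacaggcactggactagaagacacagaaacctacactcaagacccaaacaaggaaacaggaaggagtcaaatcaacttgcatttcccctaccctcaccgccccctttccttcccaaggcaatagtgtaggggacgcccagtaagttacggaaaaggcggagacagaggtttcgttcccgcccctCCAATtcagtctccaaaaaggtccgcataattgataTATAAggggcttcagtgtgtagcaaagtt
H2AC8: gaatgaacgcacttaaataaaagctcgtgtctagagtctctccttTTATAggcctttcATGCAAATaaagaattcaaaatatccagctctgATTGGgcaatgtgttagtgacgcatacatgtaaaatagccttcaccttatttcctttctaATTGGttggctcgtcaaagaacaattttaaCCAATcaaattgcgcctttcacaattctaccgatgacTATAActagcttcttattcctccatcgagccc
H2AC20: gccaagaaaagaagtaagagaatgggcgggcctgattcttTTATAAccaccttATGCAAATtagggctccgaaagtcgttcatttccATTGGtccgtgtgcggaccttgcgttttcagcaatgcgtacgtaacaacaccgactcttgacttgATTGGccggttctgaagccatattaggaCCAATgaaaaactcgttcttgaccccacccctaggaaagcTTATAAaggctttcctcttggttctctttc
IER5: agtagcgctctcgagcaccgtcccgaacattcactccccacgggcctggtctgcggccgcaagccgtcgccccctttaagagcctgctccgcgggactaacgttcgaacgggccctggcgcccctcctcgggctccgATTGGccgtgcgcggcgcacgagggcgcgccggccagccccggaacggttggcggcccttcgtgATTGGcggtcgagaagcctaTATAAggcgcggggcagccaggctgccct
Of the 23 histone genes above the limit, 22 had such a stretch. TATAA was in 21 of these 22, against 18.9% of all 35116 stretches, CCAAT in 19 of 22, against 32.0%, and ATTTGCAT in 9 of 22, against 1.63%. The octamer was in H2AC8 and H2AC20 and not in H4C6, and it was also in H2BC12, H2AC6 and H2AC21, whose differences were small or positive. H3C11 is named without its stretch. A match describes letters in this window and says nothing of binding.

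The other lower genes came from unrelated groups. MZT2B, a part of the gamma-tubulin complex, had 1699 with methanol against 3964 in untreated cells, a difference of -1.21, but a second row of the gene differed by 0.46. FOXE3, a forkhead factor gene of the lens, had 875 against 1951. SPOP, the substrate adaptor of a cullin-3 ubiquitin ligase, had 1347 against 2831. Differences were -1.14 and -1.06. Just past the 2-fold limit on the inner side stood SLC71A2 at -0.99, PTDSS1, a phosphatidylserine synthase, at -0.95 and AMD1, which makes the aminopropyl donor of polyamines, at -0.95.

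On the higher side NPM1, the nucleolar chaperone nucleophosmin, had 3196 with methanol against 1725 in untreated cells, a difference of 0.88, or 1.10 from its bin. The LTD4 array at 1 h had 3177, and the 8 h arrays had 3103 with methanol against 2877 in untreated cells, so the untreated array at 1 h was the low one. CRYGN, a gamma-crystallin gene, had 2168 against 1215 and MPPED1 had 2461 against 1438, differences of 0.83 and 0.77. FABP5, a fatty acid binding protein, differed by 0.66, RHOQ, a small GTPase, by 0.63 and PSMA7, an alpha subunit of the 20S proteasome, by 0.62. LY6G5B stood at 0.62, DUSP23, a small phosphatase, at 0.61, GTF3C6, a subunit of the RNA polymerase III factor TFIIIC, at 0.57, C1orf115 at 0.56 and ATN1, the corepressor atrophin-1, at 0.55. The rows of FABP5 and LY6G5B are of type 3 in the deposited annotation, the mark for probes that can bind other transcripts.

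Enzymes that handle methanol and its products did not stand apart. Of 27 alcohol, formaldehyde and one-carbon genes with a row, 9 passed, 0 of them 2-fold higher or lower, with a median of -0.13, or 0.08 from the bin. ADH5, the glutathione-dependent formaldehyde dehydrogenase, had 1679 with methanol against 1596 in untreated cells, a difference of 0.07. CAT, catalase, had 1183 against 1727 but missed the limit on its mean. SHMT2 and MTHFD1, enzymes of folate-bound one-carbon units, differed by -0.49 and -0.47, and ALDH1B1, a mitochondrial aldehyde dehydrogenase, by -0.39. From the bin these last 3 were at -0.24, -0.25 and -0.17.

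Stress genes gave no 2-fold call in either direction. Of the NRF2 and glutathione targets, 13 of 29 passed with a median of 0.09 from the bin, and the metallothionein MT2A was lowest at -0.66. TKT, of the pentose phosphate pathway, differed by -0.58, and TXNRD1, thioredoxin reductase, by -0.23. Of 24 heat shock chaperones 18 passed with -0.06 from the bin. HSPA1A and HSPA1B, near-identical genes of inducible HSP70 whose rows may share signal, differed by -0.50 and -0.70. HSPA4 and the small heat shock protein HSPB1 differed by -0.50 each. Of 26 ATF4 and integrated stress response genes 8 passed, at -0.06 from the bin, led by the serine synthesis gene PSAT1 at -0.61 and by ALDH18A1 at -0.57, while SLC38A2 stood at -0.51 and SLC1A5 at -0.29. DDIT3, the stress transcription factor CHOP, missed the limit and had 1495 with methanol against 871 in untreated cells, a difference of 0.77, and 1.39 at 8 h. Of 23 genes of the endoplasmic reticulum unfolded protein response 15 passed at -0.12 from the bin, with DERL1 at -0.59, HERPUD1, HYOU1 and SEL1L between -0.50 and -0.47. Of 20 aminoacyl-tRNA synthetases 19 passed at -0.12, with IARS1 at -0.63, YARS1 and AARS1 at -0.52 and TARS1 at -0.45.

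Early response and growth genes were read next, since the methanol cells had left serum. Of 39 immediate early genes 9 passed, with a median of -0.41, or -0.19 from the bin. IER5 was the 1 member at least 2-fold lower, where 0.34% of protein-coding genes were at least 2-fold lower and 0% higher. EGR1, a zinc finger factor induced by serum and stress, went the other way, with 2882 with methanol against 2112 in untreated cells, a difference of 0.45, or 0.70 from its bin. MYC, a growth regulator, had 1865 against 2992, a difference of -0.68, and the AP-1 genes JUN and JUNB had -0.52 each. EGR1 and IER5 were thus the members farthest from their bins, on opposite sides. With the limit lowered to the median of all main rows, an intensity of 203, 34 members had a median of 0.05 from the bin, 19 above and 15 below. None of 16 MAP kinase phosphatase and Sprouty genes passed, and 12 had -0.02 at the lower limit. Of 25 FOXO and serum withdrawal genes 3 passed and lay below their bins. TXNIP, an arrestin-like gene that restrains glucose uptake, had 2103 against 2949, a difference of -0.48, CCNG2 stood at -0.36 and FOXO3 at -0.22, where a second FOXO3 row stood at 0.74. At the lower limit 15 of 21 of this list lay below their bins.

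Targets of NF-kB, a factor that is constitutively active in Hodgkin lymphoma cells, had no 2-fold call. Of 24 with a row 11 passed at -0.04 from the bin, with NFKB1 at -0.71, ICAM1 at -0.40, BIRC3 at -0.37 and BIRC2 at -0.29. Of 31 cytokines and chemokines 10 passed at 0.10 from the bin. CCL5, CCL2 and CCL3 differed by -0.52, -0.40 and -0.40, and LTA, lymphotoxin alpha, by -0.37. These were the widest raw differences of the list, all lower, while its median lay above the bin. Of 23 p53 targets 2 passed, CCNG1 at -0.51 and FAS at -0.39. Of 24 genes of the BCL2 family and caspases 4 passed, among them PMAIP1 at -0.47, MCL1 at -0.41 and BCL2L1 at -0.02. Of 32 interferon response genes only IFI6 passed, at -0.14. Of 21 genes of antigen presentation 10 passed at 0.01 from the bin, with TAPBP lowest at -0.61 and HLA-G highest at 0.23. CD74, TAP1 and HLA-E stood between -0.32 and -0.28. From their bins TAPBP was at -0.36, CD74, TAP1 and HLA-E at -0.07, -0.04 and -0.06, and HLA-G at 0.48.

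The leukotriene and eicosanoid genes had the second lowest median among the protein-coding lists with at least 7 members above the limit. Of 23 with a row 7 passed, with a median of -0.55, or -0.35 from the bin, and 6 of 7 below it. LTA4H, which makes leukotriene B4, had 1174 with methanol against 2445 in untreated cells, a difference of -1.05. It was the 1 member past 2-fold, where 0.34% of protein-coding genes were at least 2-fold lower and 0% higher. PTGER4, a prostaglandin E2 receptor, had 1825 against 3065, a difference of -0.74. ALOX15, a lipoxygenase of arachidonic acid, had 6405 against 9721, and PLA2G4A, the phospholipase that releases arachidonic acid, had 1309.5 against 1930.5, differences of -0.60 and -0.55. The receptors of LTD4 itself were CYSLTR1, with 1457 against 2116, and CYSLTR2, with 3482 against 4411, differences of -0.53 and -0.34. At 8 h LTA4H stood at -0.13, PTGER4 at -0.21, ALOX15 at -0.36, PLA2G4A at 0.13, CYSLTR1 at 0.05 and CYSLTR2 at 0.20. These raw values carry the opposite shift of all genes at 8 h. From their bins, LTA4H stood at -0.83 at 1 h and -0.38 at 8 h, PTGER4 at -0.52 and -0.47 and ALOX15 at -0.35 and -0.50. PLA2G4A stood at -0.35 and -0.13, CYSLTR1 at -0.31 and -0.23 and CYSLTR2 at -0.09 and 0.06. Without a limit the 23 rows had a median of -0.01 from the bin.

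Genes of energy, protein and lipid metabolism lay near the rest. Of 35 proteasome subunits 34 passed with a median of 0.16 from the bin, 20 above and 14 below, from PSMA7 at 0.62 to PSMB3 at -0.72, PSME2 at -0.67 and PSMD1 at -0.58. Of 86 subunits of the respiratory chain and ATP synthase 52 passed at 0.12, with COX6A1 lowest at -0.90, ATP5MC2 at -0.74, NDUFA3 at -0.63 and COX6C at -0.60, and with COX4I1 highest at 0.48. Of 79 cytoplasmic ribosomal proteins 70 passed at 0.03, with RPLP1 lowest at -0.80, RPL11 at -0.65, RPSA at -0.51 and RPS21 at -0.48, and with RPS14 highest at 0.44. Of 76 mitochondrial ribosomal proteins 22 passed at 0.08, with MRPL47 at -0.53, MRPS15 at -0.45, MRPS10 at -0.44 and MRPL37 at -0.42, and with MRPL36 highest at 0.38. Of 34 nucleolar ribosome biogenesis genes 17 passed at 0.08, led by NPM1, with UTP4 at -0.68, DDX21 at -0.45 and NIP7 at -0.38. Of 34 glycolysis and hypoxia genes 15 passed at 0.11, with P4HA2 at -0.64, the glucose transporters SLC2A3 and SLC2A1 at -0.54 and -0.52 and GPI at -0.47. Of 31 genes of sterol and fatty acid synthesis 18 passed at -0.13, 13 of them below the bin, with CYP51A1 at -0.69, EBP at -0.60, SCD at -0.57 and ACLY at -0.56. None of these 7 lists held a gene past 2-fold in the raw difference, and NPM1 alone passed it from its bin.

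Cell cycle genes leaned to the lower side with no gene past 2-fold. Of 46 replication and S phase genes 20 passed at -0.07 from the bin, 13 below it, with the helicase subunits MCM2 and MCM6 at -0.72 and -0.59 and the loader CDC6 at -0.67. At the lower limit 34 of 46 lay below their bins, with a median of -0.15. Of 40 mitosis and G2 genes 28 passed at -0.11, 22 of them below the bin. CKS2, a cofactor of cyclin-dependent kinases, had 933 with methanol against 1680.5 in untreated cells, a difference of -0.84, KIF2C, a mitotic kinesin, stood at -0.79, and TOP2A and BUB1 stood at -0.54 and -0.53. At 8 h 22 of these 28 lay above their bins.

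**Figure D3:**
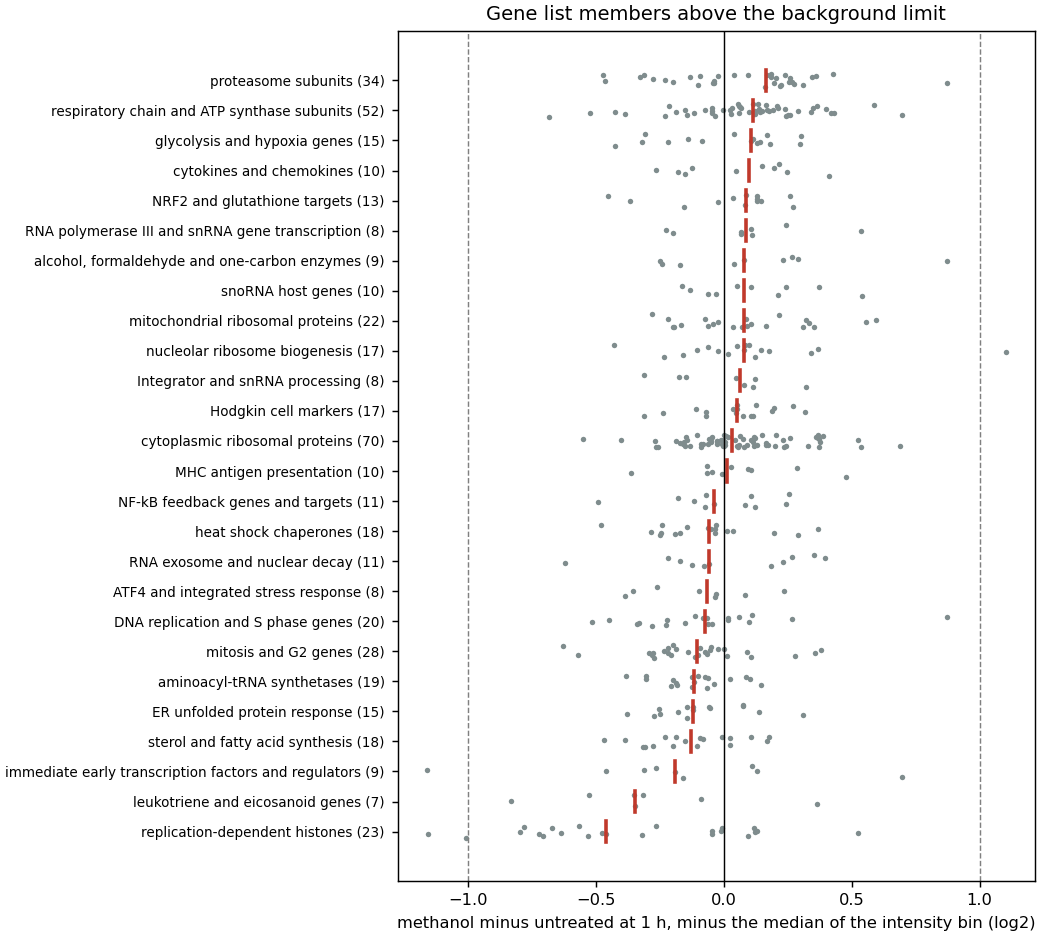
Difference from the intensity bin at 1 h (log2), 1 point per protein-coding or host gene above the background limit, with the list median as a red bar and the number of members in brackets, for lists of at least 7 members. Histone genes have the lowest median, -0.46, and proteasome subunits the highest, 0.16, while 24 of the 26 lists keep theirs between -0.19 and 0.16.

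Short RNA rows spread wider than protein-coding genes, with an SD from the bin of 0.796 over 49 rows against 0.26 over 2646 genes. Of the 49 above the limit, 3 were at least 2-fold higher with methanol (6.12%) and 5 at least 2-fold lower (10.2%), and the median difference was -0.06, or 0.17 from the bin. After the bin median was subtracted, 4 were 2-fold higher (8.16%) and 4 lower (8.16%). The 3 higher rows were C/D box RNAs, and the 5 lower ones were the RNase MRP RNA, a U4, a U5 and a pair of H/ACA box RNAs. In the class of other rows, 2 of 77 were at least 2-fold higher (2.6%) and 0 lower (0%), named after their values were seen. The predicted gene hCG_1778643 had 5949 with methanol against 2425 in untreated cells, a difference of 1.29, and the histone pseudogene H2BP3 had 2564 against 1094, a difference of 1.22.

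RNase P and RNase MRP are ribonucleoproteins that trim precursor transfer RNA and precursor ribosomal RNA. RPPH1, the RNA of RNase P, had an intensity of 249 with methanol against 3159 in untreated cells, a difference of -3.58. It had 561 against 3179 at 8 h, where the difference was -2.47, and its mean over the 6 arrays missed the limit. RMRP, the RNA of RNase MRP, had 768 against 3867, a difference of -2.31, and 1449.8 against 5709.6 at 8 h, a difference of -1.97. Both untreated arrays were high and both methanol arrays low for these RNAs. The LTD4 array at 1 h had 310.01 for RPPH1 and 1063 for RMRP, close to methanol. RPPH1 lies on chromosome 14 at 19881073-19881405 and RMRP on chromosome 9 at 35647766-35648001 in the deposited coordinates. Of 10 genes of their protein parts none passed, and 9 had -0.10 from the bin at the lower limit.

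Of 10 spliceosomal RNA rows 4 passed, 2 of them at least 2-fold lower, where 10.2% of short rows were at least 2-fold lower and 6.12% higher. RNU5E-1, a U5 RNA, had 841 with methanol against 4244 in untreated cells, a difference of -2.31, and -1.27 at 8 h. RNU4B1, of U4, had 1065 against 5038, a difference of -2.22, and -1.29 at 8 h. RNU2-1 and RNU2-2, of U2, have identical values in the file and so count as 1 measurement, with 4823 against 3978, a difference of 0.28. Below the limit RNU5A-1 had 29.3 against 298, at -2.79, although its 8 h difference was -0.23. RNU4-2 had 23.1 against 74.7, at -1.21, and stood at 1.42 at 8 h. RNU5F-1 had 533 against 743, at -0.47, and stood at 0.41 at 8 h. RNU5D-1 had 69.3 against 49.2, at 0.39, and stood at 2.61 at 8 h. From their bins at 1 h, RNU5A-1, RNU4-2, RNU5F-1 and RNU5D-1 stood at -3.11, -1.53, -0.33 and 0.06. At 8 h they stood at -0.64, 1.14, 0.10 and 2.32 from theirs, in the same order. RN7SK, the 7SK RNA that holds the elongation factor P-TEFb, differed by -0.54 and by -0.46 at 8 h. The rows of RNU4B1, RNU2-1, RNU2-2, RNU5A-1, RNU5D-1 and RN7SK are of type 3 in the deposited annotation. Their probes can bind other transcripts, so their signal may not be that of the named RNA alone. The protein machinery that makes or matures these RNAs had no 2-fold call. Of 26 genes of RNA polymerase III and snRNA transcription 8 passed at 0.09 from the bin, with GTF3C2 at -0.44, GTF3C3 at -0.40, POLR3K at 0.34 and SNAPC3 at -0.15. Of 31 Integrator and processing genes 8 passed at 0.06, with INTS7 at -0.52, INTS10 at -0.38, INTS14 at -0.36 and LSM4 at -0.20. Of 20 genes of the RNA exosome and nuclear decay 11 passed at -0.06, with the exonuclease XRN2 at -0.83, MTREX at -0.47, DIS3 at -0.38 and PARN at -0.34. C1D, whose row is of type 3 too, was highest at 0.14. From their bins XRN2, MTREX, DIS3 and PARN stood at -0.62, -0.22, -0.17 and -0.12, and C1D at 0.39.

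C/D box small nucleolar RNAs, which guide methylation of ribosomal RNA, were the class that stood higher. Of 120 rows 16 passed, with a median difference of 0.51, or 0.74 from the bin, and 15 of 16 lay above their bin. The bins are protein-coding medians, and all 49 short rows that passed had a median of 0.17 from them. SNORD41 had 1552 with methanol against 568 in untreated cells, a difference of 1.42. SNORD13, which takes part in acetylation of 18S ribosomal RNA, had 2235 against 830.5, a difference of 1.41. SNORD13P3, a copy of it whose row may share signal, had 1271 against 533, a difference of 1.23. SNORD95 stood at 0.93, SNORD35A at 0.76, SNORD68 at 0.67 and SNORD57 at 0.56, and SNORD33 was the 1 member below its bin, at -0.34. Without a limit 92 of the 120 rows lay above their bin, with a median of 0.25, against 0.11 over all 329 short rows. Of 13 host genes, whose introns carry small nucleolar RNAs of either box class, 10 passed with 0.08 from the bin, from SNHG32 at 0.33 to NCL at -0.31, EIF4A1 at -0.38 and RACK1 at -0.41. These hosts were not paired with the rows named above, and SNORD13 has a gene of its own outside any host.

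H/ACA box RNAs, which guide pseudouridylation, went both ways. Of 65 rows 6 passed, 2 of them at least 2-fold lower and 0 higher, where 10.2% and 6.12% of short rows were. SNORA31 had 699 with methanol against 1832.5 in untreated cells, a difference of -1.37, but the LTD4 array at 1 h had 2026. SNORA73A had 1639 against 3324, a difference of -1.01. SNORA21 and SNORA61 stood at 0.74 and 0.54. Of 14 Cajal body RNA rows 3 passed, SCARNA17 at 0.36, SCARNA9 at -0.04 and SCARNA7 at -0.27. Of the 2 microRNA rows none passed, and no row was named for a Y or vault RNA. The remaining short rows included POTEKP at -0.58 and LOC728914 at -0.57, both of type 3 in the deposited annotation. Extraction or labelling efficiency for short RNA was not measured, and its part in these differences was not tested.

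**Figure D4:**
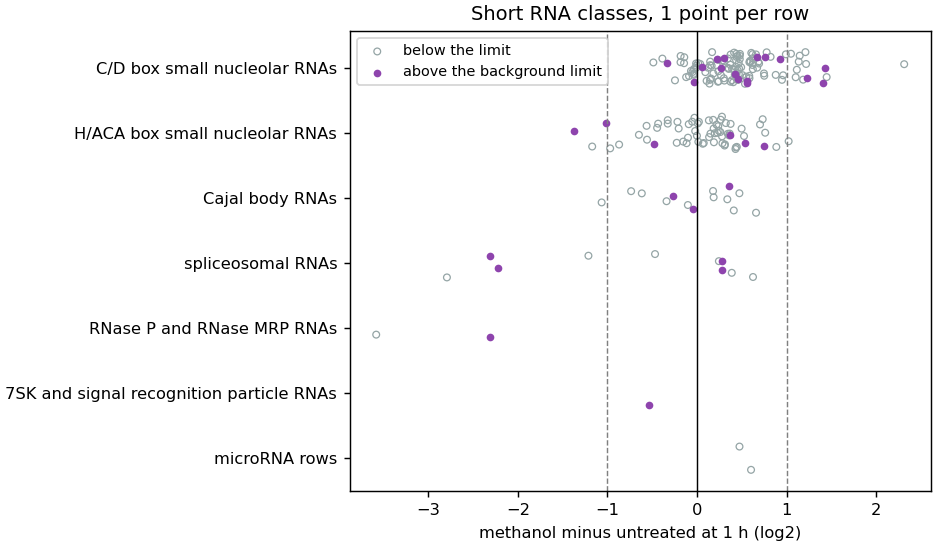
Difference between methanol and untreated cells at 1 h (log2), 1 point per row of each short RNA class, filled above the background limit and open below it, with dashed lines at 2-fold. RNase P and MRP RNAs lie at -3.58 and -2.31, the U4 and U5 rows above the limit at -2.22 and -2.31, and 15 of 16 filled C/D box points lie above their intensity bin.

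The 8 h pair shares no array with the 1 h pair and gives a second look at the same contrast, though each side is again 1 array. There the median difference of the 2646 protein-coding genes was 0.24, with 471 lower (17.8%) and 2175 higher (82.2%), opposite to the 1 h shift. Of the 9 protein-coding genes at least 2-fold lower at 1 h, 8 were also lower at 8 h, from -0.13 for LTA4H to -0.72 for H2AC8, none of them by 2-fold, and MZT2B stood at 0.27. From their bins, H4C6 stood at -1.16 at 1 h and -0.97 at 8 h, H2AC8 at -1.01 and -0.97, and IER5 at -1.16 and -0.68. Of the 12 highest, 11 were higher at 8 h, and 4 of them past 2-fold, among them FABP5, GTF3C6 and CRYGN at 1.29, 1.21 and 1.05, where 0.567% of genes were (0% were 2-fold lower). The share of 11 in 12 is near that of all genes at 8 h. C1orf115 was lower, at -0.10, and NPM1 stood at 0.11, and from their 8 h bins these 2 were at -0.37 and -0.03 while the other 10 lay above theirs. Raw sizes at the 2 times carry the opposite shifts of all genes. The histone genes had a median of -0.07, or -0.25 from the bin of 8 h, with 17 of 23 below it.

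All 8 short RNA rows past 2-fold at 1 h lay on the same side at 8 h, where 75.5% of short rows were higher and 24.5% lower. The 3 higher ones were SNORD41 at 2.57, SNORD13P3 at 2.48 and SNORD13 at 2.35, where 24.5% of short rows were at least 2-fold higher. Of the 5 lower ones, RMRP, RNU4B1 and RNU5E-1 were past 2-fold (6.12% of short rows), while SNORA73A and SNORA31 stood at -0.33 and -0.30. The C/D box median was 1.19, against 0.52 over the 49 short rows, or 0.99 from the bin, with 16 of 16 above it. Across genes the differences at both times had a Pearson correlation of 0.623 over 2646 protein-coding genes and 0.917 over 49 short rows. Genes are not independent replicates, and rows of a class share their extraction and labelling.

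**Figure D5:**
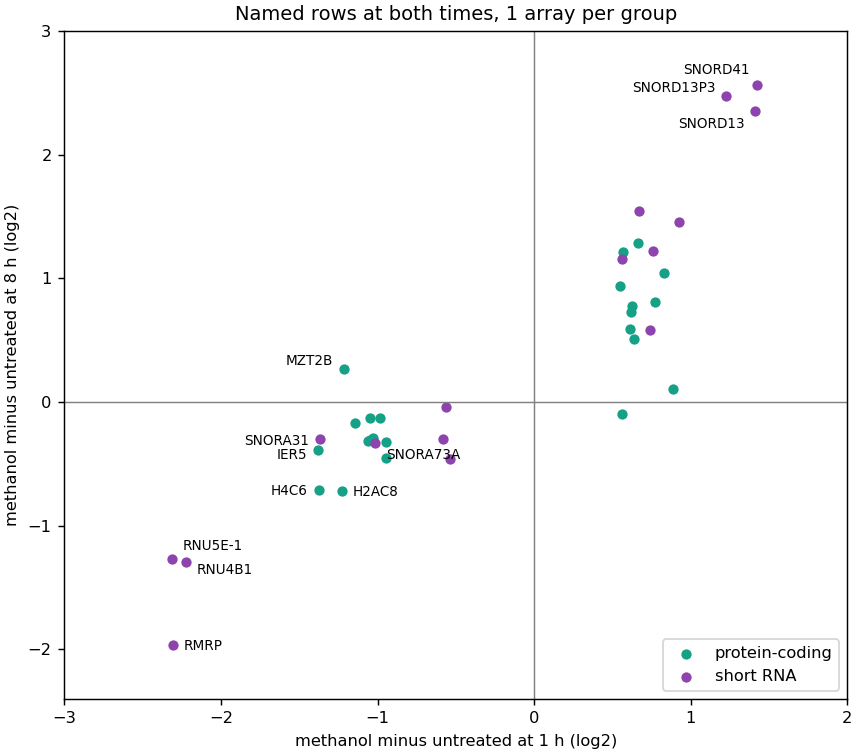
Methanol minus untreated at 8 h against the same at 1 h (log2) for 23 named protein-coding genes and 16 named short RNA rows, 1 array per group. RMRP, RNU4B1 and RNU5E-1 are low at both times, SNORD41, SNORD13 and SNORD13P3 high at both, and MZT2B changes sides, from its -1.21 at 1 h to 0.27 at 8 h.

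The LTD4 array at 1 h was read against the same untreated array, so it shares that array and gives no independent support. Its values for the 9 lower protein-coding genes differed from the untreated array by -1.24 to -0.18, with IER5 at the lower end and FOXE3 at the upper. For EGR1 it had 9692, against 2882 with methanol and 2112 in untreated cells.

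The cell line markers fit the label in part. Of 11 Hodgkin cell markers, with all 11 measured, 5 passed. All 11 lay above 203, the median of all main rows, with lowest values of 284 with methanol and 291 in untreated cells. Some markers of other cell types lay above 203 too. All 11 together summed to 14796 with methanol and 16724 in untreated cells, with IRF4 at 4196 against 4633. TNFRSF8, which encodes CD30, was below the limit with 542 against 702. Of the longer list of 25 Hodgkin cell genes 17 passed at 0.05 from the bin, with CD86 at -0.49, TNFRSF9 at -0.33 and FSCN1 at -0.32. Of 7 B lineage markers only PAX5 passed, at 1279 against 1261, and in the longer list of 22 TCF3 passed too, at 0.08. Markers of T and NK cells, myeloid cells, stroma and epithelium and erythroid cells had 0 of 6, 0 of 6, 0 of 6 and 0 of 4 above the limit, none of them at 0. Their sums were 1077, 1053, 2004 and 493 with methanol and 882, 674, 1628 and 448 in untreated cells, higher with methanol in each. The shift of dim rows on the methanol array enters these sums. From their bins the medians were 0.02 for T and NK, 0.06 for stroma and epithelium and -0.06 for erythroid markers. The myeloid markers had a median of 0.23 from their bins. CD14, a coreceptor for lipopolysaccharide, stood at 0.57 and the calprotectin gene S100A8, with 100 against 39.8, at 0.74, while LYZ stood at -0.16. Of the stroma and epithelium sum, CDH5, an endothelial cadherin, made up 1264 with methanol and 1024 in untreated cells, 0.50 from its bin. In the longer lists 0 of 20 T and NK, 0 of 15 myeloid and 0 of 11 erythroid and platelet genes passed, and of 17 fibroblast, epithelial and endothelial genes PECAM1 did, at -0.39. KRT18, a keratin of simple epithelia in that list, missed the limit and had 821 with methanol against 257 in untreated cells, a difference of 1.62. At 8 h it differed by 0.47, and from its bins it stood at 1.70 at 1 h and 0.04 at 8 h. The part of other cell types in these results was not tested. Of 11 cancer-testis antigen genes PRAME and MAGEB2 passed, at -0.41 and -0.34.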

How the data were processed

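RNA of L1236 cells was measured on 6 Affymetrix arrays, 1 per group, of which methanol and untreated cells at 1 h were compared. The deposited table holds linear gene-level intensities. The table carries the name of PLIER, whereas the submitters' processing notes list Affymetrix Expression Console and RMA. Which of them made the values, and how arrays were normalized to each other, is not stated. A second deposited table was identical in 199782 of 199782 intensities.

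Rows with exactly 1 gene symbol were used (19479, while 1032 had several and 12786 none). Symbols were updated through Entrez identifiers to GRCh38.p14 for 19085 rows, the brightest row stood for a symbol, and values were taken as log2(intensity + 16), which understates changes of dim rows. The limit, the 20 bins and the 2-fold size are given with the results. Counting was checked on simulated arrays. The rule for named genes took the 12 highest and 12 lowest protein-coding genes, the 8 highest and 8 lowest short RNA rows, up to 4 members of each of 46 lists, and a fixed few. Members of a list were taken by their absolute raw difference, so the protein-coding median of -0.23 favoured lower members. H3C7, H3C12, H3C1, H2AC21, H2BC1, H2BC12, H2AC6, H4C7, H4C8, RNU5A-1, RNU4-2, RNU5D-1, RNU5F-1, SNORD33, IRF4, CD14, S100A8, LYZ, CDH5, KRT18, COX4I1, RPS14, MRPL36, HLA-G and C1D were named after their values were seen. Some genes that the rule took are not reported here. Members and lists were chosen with earlier results of these data known. With 1 array per group no test was run, and array number limits the precision. Python 3.11.15, pandas 2.3.3 and statsmodels 0.14.6 were used.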

Additional observations from a re-analysis of the deposited data

Results flagged for a closer look

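The median difference of the protein-coding genes above the limit was -0.23 for methanol against untreated cells at 1 h and 0.24 at 8 h, opposite in sign, a difference that was not tested. MZT2B stood at -1.21 at 1 h and at 0.27 at 8 h, also opposite and not tested, and its second row at 1 h differed by 0.46.

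Rows without a gene symbol entered no count in the comparison. Of 338 above the limit, 42 were at least 2-fold lower with methanol at 1 h and 12 at least 2-fold higher, on 319 distinct sets of values. Of the 2772 genes that passed, 0.505% were at least 2-fold lower and 0.18% at least 2-fold higher. Of the 42, 30 spanned at least 100 and under 400 bases, and 10 of these had 1 length in common, with 4 distinct sets of values, 936 to 1231 with methanol against 2434.5 to 3231 in untreated cells and a median difference of -1.34. Control rows in introns, 2904 in number and outside every gene count, were higher with methanol by a median of 0.24, and by 0.50 at 8 h. Protein-coding bins of like intensity at 1 h, with medians of 92.4 and 112, differed by 0.35 and 0.32. At 8 h the highest median of a protein-coding bin was 0.45.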

How the results depend on the processing

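No paired analysis was possible because each group is 1 array, and for the same reason no array could be left out. Counts of protein-coding genes at least 2-fold higher and lower, 0 and 9, became 266 and 26 with no limit, 104 and 19 with the limit at the median of all main rows, 12 and 14 with the limit on the highest array, 2 and 4 after centring arrays on their median, 2 and 3 after centring in intensity bins or quantile normalization, 2 and 2 after lowess, and 9 and 200 at 1.5-fold. For short RNA rows, 3 and 5 became 23 and 11 with no limit, 10 higher at the median limit, 7 higher on the highest array, 5 higher after quantile normalization and 7 higher at 1.5-fold. Their other counts stayed within 1.5 times. The protein-coding median of -0.23 became 0.057 with no limit, -0.12 at the median limit, -0.025 after array centring, -0.030 after quantile normalization, -3.2e-05 in bins and -8.19e-05 after lowess. The short RNA median of -0.06 became 0.28, 0.14, 0.15, 0.17, 0.15 and 0.17 with no limit, the median limit, array centring, bins, quantile normalization and lowess. Of the alternatives added after seeing the data, bins with the median limit gave 106 and 15 protein-coding genes, 10 higher short rows and medians of -0.0046 and 0.18. Bins without a limit gave 165 and 34, 13 and 12, and medians of 0.0 and 0.11. Offsets of 1 and 64, the second table, all rows of a symbol averaged and dropping short or cross-hybridizing protein-coding rows left these results within those bounds. The limit of 1263 is strict, since the median antigenomic row lay at 48.8 with methanol and 40.7 in untreated cells, so dim genes were left unread.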

Other observations

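Mitochondrial rows without a symbol differed by length. The 14 rows on the mitochondrial chromosome under 100 bases had a median difference of 0.63 at 1 h and 0.52 at 8 h. At 1 h 13 of them were higher with methanol, 3 of them at least 2-fold, as were 12 of all 338 rows without a symbol. The 12 longer mitochondrial rows had a median of -0.03, and the widest difference among them was that of a row at bases 670 to 931, with an intensity of 5338 with methanol against 21594 in untreated cells, a difference of -2.01, and -1.34 at 8 h.

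Among protein-coding genes above the limit, the difference varied with the length the row spans at 1 h and less so at 8 h. From the intensity bin, medians were 0.03 for 78 genes under 1000 bases, 0.10 for 135 of 1000 to 3000, 0.10 for 476 of 3000 to 10000, 0.05 for 795 of 10000 to 30000, -0.07 for 863 of 30000 to 100000 and -0.11 for 299 longer ones. At 8 h the corresponding medians were 0.01, -0.03, 0.03, 0.04, 0.01 and -0.02. This split was chosen after the values were seen.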
